A study of Mus musculus with 24 samples.

Results

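The circadian clock of the liver was read here through 10 genes, Arntl, Clock, Npas2, Per1, Per2, Per3, Cry1, Nr1d1, Nr1d2 and Dbp. They were taken by gene symbol from a count table of 54532 genes, 1 row each, and described in 24 RNA-seq libraries from the livers of fasted male mice, 4 livers for each of 6 genotypes. All mice were 8 to 10 weeks old, had been fasted for 24 h and were collected at 3 pm from a colony kept under 14 h of light and 10 h of dark, according to the methods. The clock hour of lights-on is not stated, so the hour since lights-on is not known.

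Rab30KO mice lack exon 4 of Rab30, a small GTPase of the Golgi, in the whole body, and Rab30 Ctrl are their wild-type littermates. In Rab30L-/-, Cpt2L-/- and DKO mice, a Cre transgene under the albumin promoter acts in hepatocytes on floxed Rab30, on floxed Cpt2, or on both. Cpt2 is the carnitine palmitoyltransferase that mitochondria need to oxidize long-chain fatty acids. The floxed controls (ff;ff) carry floxed Rab30 and floxed Cpt2 without Cre, and by the labels they come from the litters of the DKO mice. No litter relation is given for Rab30L-/- or Cpt2L-/- and no collection day for any mouse, so litter or day and genotype cannot be told apart in those comparisons. The floxed controls served in 3 comparisons, whose results are therefore not independent. In each of these, livers with the Cre transgene are set against livers without it, so the transgene and the deletion cannot be told apart.

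In the clock, the proteins of Arntl (Bmal1) and of Clock or its relative Npas2 pair and switch on genes through E-box sequences. Among those genes are the Period and Cryptochrome genes, whose proteins return to block the pair, and Nr1d1 and Nr1d2, which encode the nuclear receptors Rev-erbα and Rev-erbβ. The Rev-erbs repress Arntl and Cry1 through RORE sequences, while Dbp, a PAR bZIP factor, activates genes through D-boxes. In mouse liver the RNA of these genes cycles over the day, and the phase and amplitude respond to the time of feeding. A single collection hour gives the level at that hour and neither phase nor amplitude.

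Total counts per library ranged from 11801027 to 24497738. Levels are given as CPM, read counts relative to the TMM-scaled size of each library, and differences between groups as log2 fold changes with standard errors from edgeR's quasi-likelihood test, whose p-values were adjusted over all genes tested by the Benjamini-Hochberg method. A gene was called where the change reached 1.2-fold with an adjusted p below 0.05. Rab30 itself was at 14.1 ± 10.8 CPM in Rab30 Ctrl and 11.2 ± 5.04 CPM in Rab30KO (SD over 4 livers each), with a log2 fold change of -0.34 (adjusted p = 0.9999 from edgeR). It was at 36.6 ± 9.55 CPM in the floxed controls, 17.1 ± 7.36 CPM in Rab30L-/-, 147 ± 29.99 CPM in Cpt2L-/- and 161 ± 57.9 CPM in DKO. Its log2 fold change was -1.10 in Rab30L-/- (adjusted p = 0.174 from edgeR) and 2.13 in DKO (adjusted p = 0.000552) against the floxed controls, and 0.15 in DKO against Cpt2L-/- (adjusted p = 0.763), so that Rab30 reads were not fewer on average in the libraries labelled DKO than in those labelled Cpt2L-/-. The log2 fold change of Cpt2 between Cpt2L-/- and the floxed controls was -0.07 (adjusted p = 0.788 from edgeR). Cpt2 was at 132 ± 5.16 CPM in the floxed controls, 219 ± 40.3 CPM in Rab30L-/-, 127 ± 30.2 CPM in Cpt2L-/- and 105 ± 10.9 CPM in DKO, with every DKO library below and every Rab30L-/- library above every floxed control. It was called between DKO and Rab30L-/- (log2 fold change -1.07, adjusted p = 0.000449 from edgeR) and in the interaction, the change from Cpt2L-/- to DKO less that from the floxed controls to Rab30L-/- (-0.99, adjusted p = 0.0191). A count over a whole gene need not register the loss of 1 exon, as in Rab30, and the deleted part of Cpt2 is not given in the sources used here, so these values do not check the labels, and the groups below are as labelled. All 4 hepatocyte markers were measured, and the sum of their levels was 86644 to 114540 CPM in the floxed controls, 71515 to 85371 CPM in Rab30L-/-, 41888 to 50599 CPM in Cpt2L-/- and 55833 to 67543 CPM in DKO. Every library of the 3 groups with albumin-Cre was thus below every floxed control. In the same order, the sums of 4 Kupffer cell markers were 121 to 229.6, 169 to 458, 101 to 153 and 103 to 124 CPM, and those of 4 bile duct markers 6.22 to 11.2, 5.49 to 11.2, 1.92 to 4.03 and 2.90 to 3.98 CPM. The sums of 2 red blood cell markers were 167 to 568, 215 to 554, 62.5 to 132 and 93.8 to 351 CPM, so that Cpt2L-/- lay below every floxed control. Stellate cell markers went the other way, with median sums of 202.39, 218.24, 246.05 and 257.72 CPM in the same order. The medians for sinusoidal endothelial cell markers were 156.24, 129.7, 140.78 and 142.85 CPM. For both sets, the range of the floxed controls overlapped that of each group with albumin-Cre. The part of any of these cell types in the changes of the clock genes was not tested. In whole liver, a lower level of a gene in each cell and a smaller share of the cells that express it cannot be told apart.

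Against the floxed controls, more clock genes changed in Cpt2L-/- livers than in the other groups, with Nr1d1 and Dbp higher and Cry1, Arntl, Per2 and Clock lower. In DKO livers Arntl and Cry1 were lower, and Cry1 and Nr1d1 differed between DKO and Cpt2L-/- in the direction of the floxed controls. In Rab30L-/- livers Dbp was higher, and in Rab30KO livers no clock gene passed the test. Among the 10 genes, 9 passed the filter on low counts and were tested in every comparison, and Npas2 did not.

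In numbers, 6 of the 9 tested clock genes were called between Cpt2L-/- and the floxed controls, 2 higher and 4 lower, where 23.8% of the 13270 genes tested were called. Between DKO and the floxed controls 2 were called, where 16.1% of 13389 genes were. Of the 9, 1 was called between Rab30L-/- and the floxed controls, against 0.479% of 13367 genes. Between DKO and Cpt2L-/- 2 were called, against 2.71% of 13306 genes, and between DKO and Rab30L-/- 1 was called, against 30.7% of 13292 genes. With 1 to 2 of 9 genes called, the shares in DKO against the floxed controls and against Rab30L-/- were near or below those of all genes. Between Rab30KO and Rab30 Ctrl 0 clock genes were called by edgeR and 0 by DESeq2's Wald test, against 0.0220% of 13656 genes by edgeR. At an unadjusted p under 0.05, that comparison had 302 of all genes (2.21%) and 0 of the 9 clock genes, and the 9 clock genes had log2 fold changes between -0.36 for Dbp and 0.29 for Arntl. The 95% interval of Dbp, -1.11 to 0.38, was the widest of the 9 and reached past a 2-fold fall. In a single edgeR test over the 6 groups, 7 of the 9 differed between groups, against 44.5% of 14584 genes, and the exceptions were Per1 (adjusted p = 0.710) and Nr1d2 (adjusted p = 0.356). Clock passed with all libraries (adjusted p = 0.0187) and not without floxed control replicate 1 (adjusted p = 0.0526). The 6 groups span the Rab30KO line with its wild-type littermates and the floxed lines, so line and genotype cannot be told apart in this test. In Rab30 Ctrl and the floxed controls, the means were 75.4 and 35.4 CPM for Per3 and 34.6 and 55.9 CPM for Clock. They were 29.3 and 23.9 CPM for Nr1d1, and no test compared these control groups. The median log2 fold change of the 9 was -0.48 in Cpt2L-/- and -0.22 in DKO against the floxed controls, beside medians of -0.0035 and -0.018 over all genes tested.

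**Figure D1:**
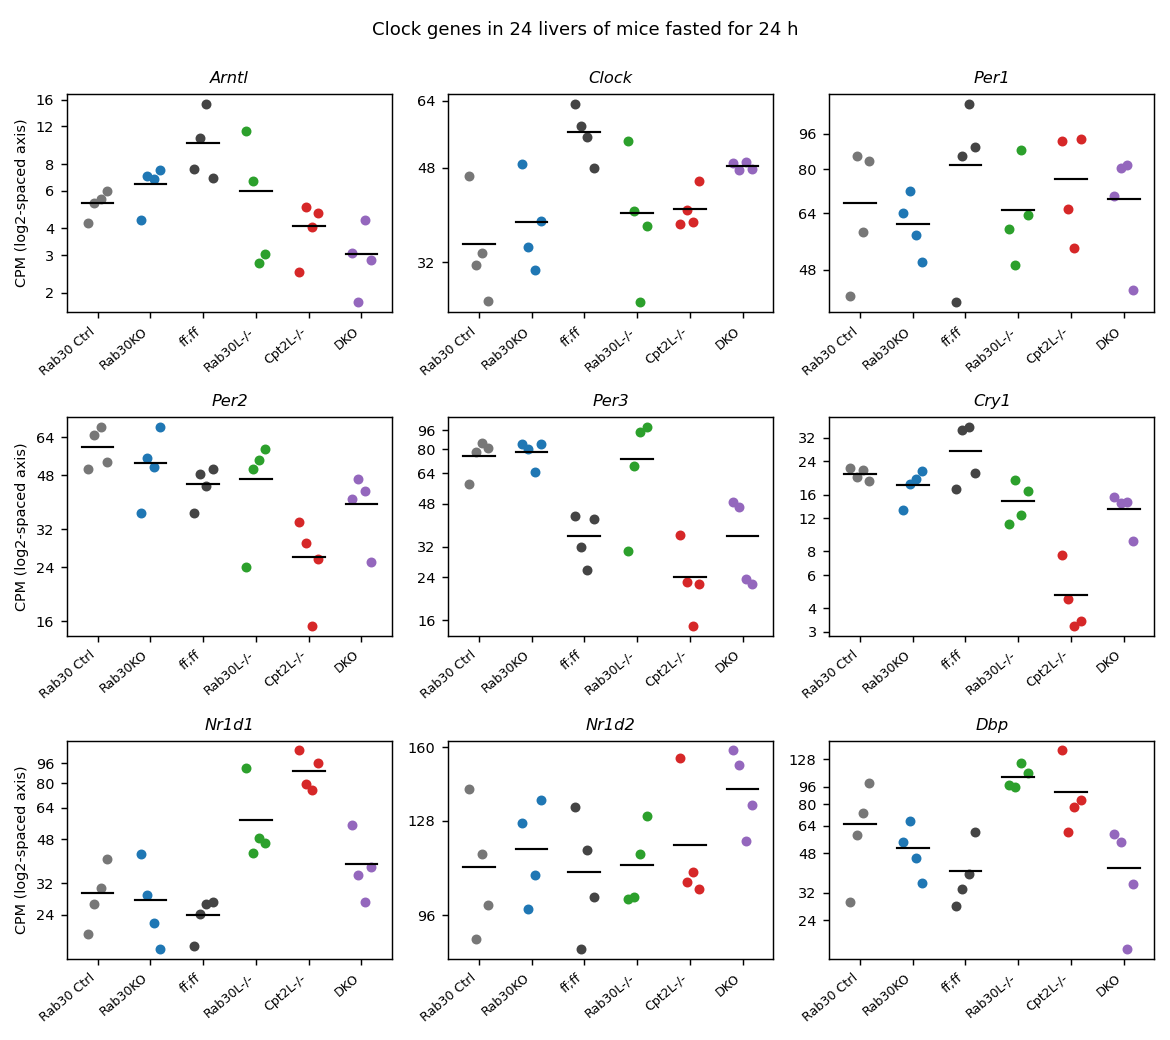
CPM after TMM scaling (vertical axis, spaced by log2) of the 9 tested clock genes in 24 livers, by genotype (horizontal axis), with 1 point per library and a bar at the mean of each group of 4. Cry1 was lowest and Nr1d1 highest in Cpt2L-/-, whose 4 libraries lay outside the range of the floxed controls (ff;ff) for each gene.

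**Figure D2:**
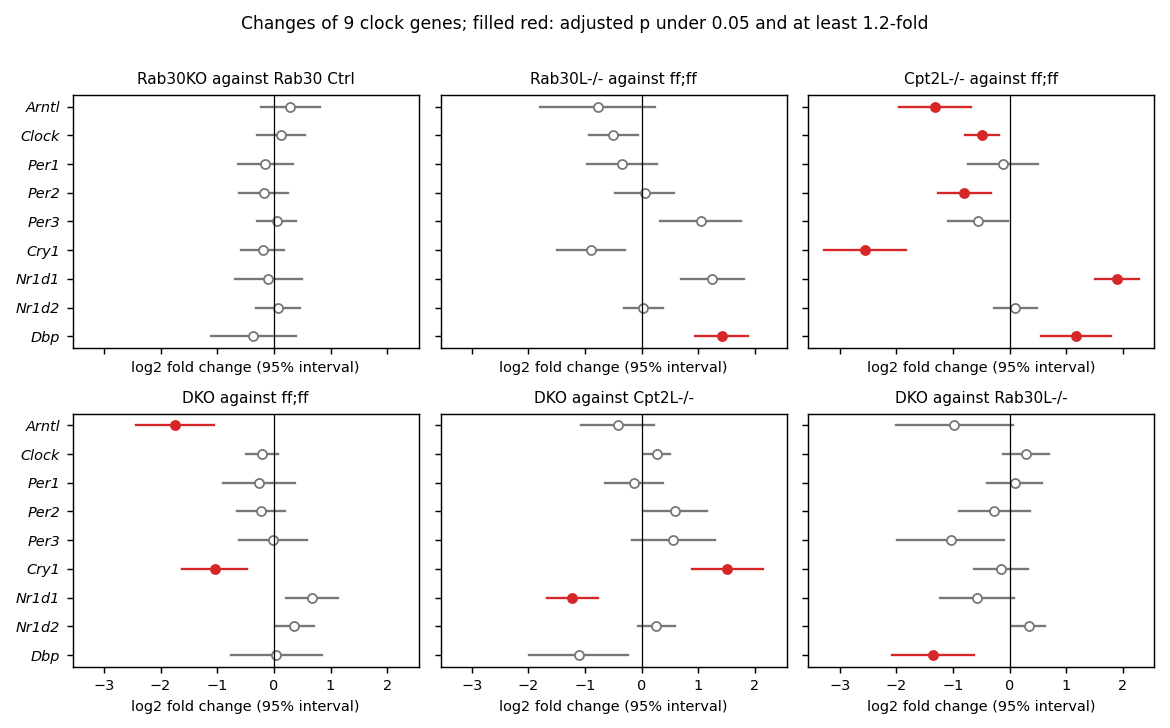
Log2 fold change (horizontal axis) of each of the 9 tested clock genes in 6 comparisons, with the 95% interval as a line. Filled red points were called: 6 genes in Cpt2L-/- against ff;ff, 2 in DKO against ff;ff, 1 in Rab30L-/- against ff;ff, 2 in DKO against Cpt2L-/-, 1 in DKO against Rab30L-/- and 0 in Rab30KO.

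Among the activators, Arntl (ENSMUSG00000055116, chromosome 7 of GRCm38 from 113207465 to 113314126, plus strand) encodes the partner that Clock and Npas2 share. It lies 20.5 Mb from Rab30 on the same chromosome. Its level was 6.86, 7.60, 10.6 and 15.3 CPM in the floxed controls, 2.50, 4.08, 4.75 and 5.04 CPM in Cpt2L-/- and 1.81, 2.86, 3.07 and 4.36 CPM in DKO. Every Cpt2L-/- and every DKO library was below every floxed control. The log2 fold changes were -1.31 (SE 0.29, adjusted p = 0.00555 from edgeR), or 2.49-fold lower, in Cpt2L-/- and -1.75 (SE 0.32, adjusted p = 0.00342 from edgeR), or 3.35-fold lower, in DKO. The change from Cpt2L-/- to DKO was -0.43 with a 95% interval of -1.07 to 0.22 (adjusted p = 0.427 from edgeR). In Rab30L-/- Arntl ranged from 2.77 to 11.4 CPM and overlapped the floxed controls (log2 fold change -0.77, adjusted p = 0.561 from edgeR). With 1 library left out, that log2 fold change ran from -1.31, without Rab30L-/- replicate 1, to -0.51, without floxed control replicate 3. It was called in none of these fits. Arntl was at 4.23 to 5.97 CPM in Rab30 Ctrl (mean 5.25 CPM) and had a mean of 6.43 CPM in Rab30KO. The highest mean, 10.1 CPM, was that of the floxed controls. The Cpt2L-/- libraries at 4.75 and 5.04 CPM and the DKO library at 4.36 CPM lay within the range of Rab30 Ctrl. No test compared Cpt2L-/- or DKO with that other control group. At 28 to 219 counts per library Arntl was the most thinly covered of the tested clock genes.

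A promoter window of Arntl is shown because it holds the sequence through which the Rev-erb proteins act on Arntl. In the RefSeq promoter table (GRCm38.p6, 250 bases before to 50 bases after a gene's start), 9 of the 10 clock genes, all but Per2, had 13 windows. The RORE was searched as TAGGTCA or TGGGTCA on both strands, and 6.45% of all 32851 windows held it. The window at chr7:113207261-113207560 (plus strand) has the RORE in capitals, 30 bases after the start.
Arntl: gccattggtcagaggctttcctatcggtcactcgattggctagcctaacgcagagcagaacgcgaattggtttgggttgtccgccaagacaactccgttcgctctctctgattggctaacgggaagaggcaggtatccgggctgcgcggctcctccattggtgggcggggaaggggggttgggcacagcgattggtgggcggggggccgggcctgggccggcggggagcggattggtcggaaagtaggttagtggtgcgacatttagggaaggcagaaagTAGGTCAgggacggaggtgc
It is 1 of 2 windows for Arntl, and the other, which overlaps it upstream, has no match. No other clock gene had a RORE in these windows, and a match describes the letters and no binding.

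Clock (ENSMUSG00000029238, chromosome 5 from 76209868 to 76304792, minus strand) encodes the usual partner of Arntl. Its level was 47.9, 54.9, 57.5 and 63.2 CPM in the floxed controls and 37.7, 37.9, 40.03 and 45.3 CPM in Cpt2L-/-. Against the floxed controls, whose mean was the highest of the 6 groups, the groups did not overlap and the difference was small, with a log2 fold change of -0.48 (SE 0.14, adjusted p = 0.0232 from edgeR), or 1.40-fold lower. It was the least stable of the calls in this comparison. The adjusted p rose to between 0.0525 and 0.0622 without floxed control replicate 2 or without Cpt2L-/- replicate 1, 2 or 3, and to 0.0540 in a fit over all 24 libraries. In DKO the 4 libraries lay between 47.6 and 49.2 CPM, all above the 4 Cpt2L-/- libraries, with a log2 fold change of 0.28 between those groups that was not called (adjusted p = 0.165 from edgeR). Clock was at 27.1 to 46.4 CPM in the wild-type Rab30 Ctrl, 30.9 to 48.8 CPM in Rab30KO and 26.9 to 53.9 CPM in Rab30L-/-, so that the Cpt2L-/- libraries lay within the range of that other control group, with which they were not compared by a test.

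Npas2 (ENSMUSG00000026077, chromosome 1 from 39193731 to 39363236, plus strand), which can stand in for Clock, had 0 to 8 counts per library. Summed over the 4 libraries of a group it had 1 count in Rab30 Ctrl, 5 in Rab30KO, 3 in Rab30L-/-, 6 in DKO, 13 in the floxed controls and 20 in Cpt2L-/-. Npas2 stayed under the filter in every comparison, so the tests leave it out.

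Among the repressors, Cry1 (ENSMUSG00000020038, chromosome 10 from 85131700 to 85185064, minus strand), a strong repressor of the Arntl and Clock pair, had the largest log2 fold change of the 9 tested clock genes in the 6 pairwise comparisons. In the order of replicates 1 to 4, its level was 17.1, 35.2, 36.5 and 20.8 CPM in the floxed controls, 7.69, 4.47, 3.24 and 3.43 CPM in Cpt2L-/- and 15.5, 14.4, 14.6 and 9.10 CPM in DKO. The 3 groups did not overlap, with Cpt2L-/- at the bottom and DKO between. In Cpt2L-/- the log2 fold change was -2.55 (SE 0.33, adjusted p = 0.00019 from edgeR), or 5.87-fold lower than in the floxed controls. In DKO it was -1.05 (SE 0.26, adjusted p = 0.0193 from edgeR), or 2.07-fold lower. Without floxed control replicate 2 or DKO replicate 4 the latter was no longer called (adjusted p = 0.0572 and 0.0511). Directly compared, Cry1 was 2.85-fold higher in DKO than in Cpt2L-/- (log2 fold change 1.51, SE 0.28, adjusted p = 0.0237 from edgeR). Leaving out 1 library at a time ended this call in 5 of 8 fits, without DKO replicate 1 or 2 or Cpt2L-/- replicate 2, 3 or 4, with adjusted p-values from 0.0537 to 0.0899. In Rab30L-/- Cry1 was at 11.2 to 19.2 CPM (log2 fold change -0.89 against the floxed controls, adjusted p = 0.237 from edgeR). The levels in Rab30 Ctrl, 19.0 to 22.1 CPM, and Rab30KO, 13.3 to 21.5 CPM, overlapped.

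The promoter windows of Cry1 and Per1 are shown as the only ones of the 13 with the E-box CACGTG, which 7.15% of all windows hold. They are at chr10:85185005-85185304 (minus strand) and chr11:69098699-69098998 (plus strand), printed 5′ to 3′ along the gene with the E-box in capitals.
Cry1: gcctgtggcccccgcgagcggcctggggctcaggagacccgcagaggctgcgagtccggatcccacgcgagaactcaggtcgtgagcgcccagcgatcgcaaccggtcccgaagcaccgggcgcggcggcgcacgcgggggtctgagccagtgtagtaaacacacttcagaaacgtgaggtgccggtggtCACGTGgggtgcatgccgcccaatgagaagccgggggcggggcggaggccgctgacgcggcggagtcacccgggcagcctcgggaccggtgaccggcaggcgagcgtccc
Per1: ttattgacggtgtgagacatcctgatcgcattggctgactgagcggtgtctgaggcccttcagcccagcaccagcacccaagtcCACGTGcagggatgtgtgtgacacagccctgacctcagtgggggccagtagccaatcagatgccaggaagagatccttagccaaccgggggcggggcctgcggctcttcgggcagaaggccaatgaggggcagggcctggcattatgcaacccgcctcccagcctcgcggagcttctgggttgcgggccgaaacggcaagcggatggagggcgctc
The E-box begins 60 bases before the start of Cry1 and 166 bases before that of Per1. Cry1 passed the test over the 6 groups and Per1 did not, and no test compared these genes. Any part of the motif in their levels was not tested.

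Of the 3 Period genes, whose proteins join the Cryptochromes in repression, only Per2 was called in a pairwise comparison. Per2 and Per3 both had their lowest mean in Cpt2L-/-, and no test compared the Period genes with each other. Per2 (ENSMUSG00000055866, chromosome 1 from 91415982 to 91459324, minus strand) was at 36.2, 44.5, 48.6 and 50.3 CPM in the floxed controls and at 15.5, 25.5, 28.8 and 33.8 CPM in Cpt2L-/-. The groups did not overlap and the log2 fold change was -0.80 (SE 0.22, adjusted p = 0.0162 from edgeR), or 1.74-fold lower. Per2 in DKO, at 24.9 to 46.7 CPM, overlapped the floxed controls and Cpt2L-/-. Its highest mean was that of Rab30 Ctrl, 59.5 ± 9.03 CPM (SD, n = 4).

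Per3 (ENSMUSG00000028957, chromosome 4 from 151003652 to 151044665, minus strand) stood higher in the Rab30KO mice and their littermates than in most other groups. It was at 57.7 to 85.2 CPM in Rab30 Ctrl and 64.6 to 84.3 CPM in Rab30KO, above the floxed controls at 25.7 to 42.5 CPM, Cpt2L-/- at 15.2 to 35.8 CPM and DKO at 22.6 to 48.5 CPM. In Rab30L-/- replicates 1 to 4 it was at 30.8, 68.3, 94.3 and 98.6 CPM, so replicate 1 lay among the floxed controls and the others above them. The log2 fold change of Rab30L-/- against the floxed controls, 1.04 (SE 0.32), was not called with all libraries (adjusted p = 0.264 from edgeR), and was 1.29 and called without Rab30L-/- replicate 1 (adjusted p = 0.0165). Against Rab30L-/-, DKO had a log2 fold change of -1.04 (SE 0.41) that was not called (adjusted p = 0.0903 from edgeR), and of -1.29 without Rab30L-/- replicate 1, which was (adjusted p = 0.0144). DESeq2's Wald test (adjusted p = 0.012) and the fit over all 24 libraries (0.0148) also called it. Per3 differed across the 6 groups (adjusted p = 0.000211 from edgeR), among which line and genotype cannot be told apart. The whole of Per3 lies within the span of Camta1 on the same strand, and Camta1 had 39 to 116 counts per library where Per3 had 235 to 2250. It lies 43.1 Mb from Cpt2 on the same chromosome.

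The Per3 window at chr4:151044616-151044915 (minus strand) is shown because it alone of the 13 windows holds the D-box through which Dbp acts, searched as TTATGTAA or TTACGTAA on both strands and found in 1.06% of all windows. It has the motif at 2 places, in capitals, 205 and 158 bases before the start.
Per3: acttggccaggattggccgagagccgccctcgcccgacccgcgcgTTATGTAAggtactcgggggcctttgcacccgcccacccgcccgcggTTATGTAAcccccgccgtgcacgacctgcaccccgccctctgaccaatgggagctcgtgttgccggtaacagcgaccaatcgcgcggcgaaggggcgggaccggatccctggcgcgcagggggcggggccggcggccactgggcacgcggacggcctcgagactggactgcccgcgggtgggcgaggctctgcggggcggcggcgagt
Against the floxed controls, the log2 fold change of Per3 was 1.04 in Rab30L-/- and -0.56 in Cpt2L-/- (adjusted p = 0.119 from edgeR), neither called. The latter was called without a filter (adjusted p = 0.0473) and, at -0.82, without Cpt2L-/- replicate 1 (adjusted p = 0.0196). Any part of the D-box or of Dbp in the level of Per3 was not tested. The CRE, searched as TGACGTCA, was in 1.79% of all windows and in none of the 13.

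Per1 (ENSMUSG00000020893, chromosome 11 from 69095217 to 69109960, plus strand), the Period gene that also answers to hormones and cAMP, overlapped between all groups. Its level ranged from 40.6 to 112 CPM over the 24 libraries, and the means of the groups lay between 60.7 CPM in Rab30KO and 81.9 CPM in the floxed controls. Its log2 fold change was -0.11 with a 95% interval of -0.73 to 0.51 in Cpt2L-/-, and -0.26 with an interval of -0.90 to 0.38 in DKO, against the floxed controls.

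Among the Rev-erbs, Nr1d1 (ENSMUSG00000020889, chromosome 11 from 98767932 to 98775333, minus strand) gave the clearest rise. In the order of replicates, its level was 17.99, 24.2, 26.6 and 27.0 CPM in the floxed controls, 108, 79.8, 75.4 and 96.5 CPM in Cpt2L-/-, 54.4, 34.6, 26.9 and 37.3 CPM in DKO and 91.8, 42.1, 48.4 and 46.3 CPM in Rab30L-/-. All Cpt2L-/- and all Rab30L-/- libraries were above every floxed control, and the lowest DKO library was within their range. The means were 29.3 CPM in Rab30 Ctrl and 27.5 CPM in Rab30KO. The log2 fold change in Cpt2L-/- was 1.90 (SE 0.18, adjusted p = 1.2e-05 from edgeR), or 3.73-fold higher. In Rab30L-/- it was 1.25 (SE 0.25), with an adjusted p of 0.0625 from edgeR that missed the threshold, and 0.91 and called (adjusted p = 0.0397) without Rab30L-/- replicate 1, its highest library. DESeq2's Wald test (adjusted p = 0.000573), the fit over all 24 libraries (0.0332) and the test without a filter (0.00395) also called it. In DKO the log2 fold change was 0.67 (SE 0.21, adjusted p = 0.0505 from edgeR), and it was called under DESeq2's size factors (adjusted p = 0.0497), DESeq2's Wald test (0.0263), no filter (0.0082), a filter of at least 10 counts in every library (0.0496) and without DKO replicate 3 (0.0252). Nr1d1 was 2.33-fold lower in DKO than in Cpt2L-/- (log2 fold change -1.22, SE 0.20, adjusted p = 0.0147 from edgeR), with no overlap. Without DKO replicate 2 or Cpt2L-/- replicate 4 that call was lost (adjusted p = 0.0511 and 0.0664). Nr1d1 overlaps Thra on the opposite strand over 1075 bases and Thra had 102 to 384 counts per library, so that reads from the overlap could not be assigned without strand, whose use in counting is not stated.

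Nr1d2 (ENSMUSG00000021775, chromosome 14 from 18204054 to 18239127, minus strand), the close relative, kept a narrow range of 86.6 to 158 CPM over all libraries. The means of the groups lay between 109.6 CPM in the floxed controls and 141 CPM in DKO. Its log2 fold change in Cpt2L-/- was 0.10 with a 95% interval of -0.28 to 0.49, below that of Nr1d1, 1.52 to 2.28. Between DKO and Rab30L-/- Nr1d2 was called only without DKO replicate 3 (log2 fold change 0.42, adjusted p = 0.0450 from edgeR). Per length, as FPKM, which divides by gene length and library depth, Nr1d2 had the highest median level of the 10 genes over 24 libraries, 21.2, and Dbp followed with 20.2. Nr1d1 had a median of 11.9 FPKM, Arntl 0.682 FPKM and Npas2 0.0167 FPKM.

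Dbp (ENSMUSG00000059824, chromosome 7 from 45705088 to 45710203, plus strand), the output of the E-box arm, was high in both single knockouts made with albumin-Cre and not in DKO. In the order of replicates, its level was 27.8, 33.1, 38.8 and 60.2 CPM in the floxed controls, 97.5, 95.3, 123 and 111 CPM in Rab30L-/-, 140.0, 59.9, 77.9 and 84.1 CPM in Cpt2L-/- and 58.8, 54.2, 17.8 and 35.1 CPM in DKO. Rab30L-/- lay above every floxed control and every DKO library, while 1 Cpt2L-/- library was just below the highest floxed control. The log2 fold change was 1.41 (SE 0.21, adjusted p = 0.0153 from edgeR), or 2.66-fold higher, in Rab30L-/- and 1.17 (SE 0.28, adjusted p = 0.0109 from edgeR), or 2.25-fold higher, in Cpt2L-/-. The call in Rab30L-/- was lost without Rab30L-/- replicate 4 (adjusted p = 0.0623), without floxed control replicate 2 (0.0553) and in the fit over all 24 libraries (0.0834). In DKO the log2 fold change against the floxed controls was 0.05 with a 95% interval of -0.75 to 0.85. Dbp was 2.57-fold lower in DKO than in Rab30L-/- (log2 fold change -1.36, SE 0.32, adjusted p = 0.0120 from edgeR), which was not called without a filter (adjusted p = 0.0626). The 4 DKO libraries were also below the 4 Cpt2L-/- libraries, with a log2 fold change of -1.11 that edgeR did not call (adjusted p = 0.148) and DESeq2's Wald test did (adjusted p = 0.0195). In Rab30 Ctrl Dbp ranged from 28.9 to 100.2 CPM and in Rab30KO from 35.2 to 67.3 CPM. Dbp shares 737 bases with Sphk2 on the opposite strand, which had 464 to 1291 counts per library, and it lies 47.0 Mb from Rab30.

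Whether the loss of Rab30 went with a different change in livers with and without Cpt2 was tested as an interaction over 16 libraries, the change from Cpt2L-/- to DKO less the change from the floxed controls to Rab30L-/-. It was called for 3 of the 9 clock genes, where 4.06% of 14063 genes were called. The interaction was -2.47 for Nr1d1 (SE 0.35, adjusted p = 0.00076 from edgeR), -2.52 for Dbp (SE 0.48, adjusted p = 0.00981 from edgeR) and 2.41 for Cry1 (SE 0.42, adjusted p = 0.00446 from edgeR), on the log2 scale. Nr1d1 and Dbp had higher means in Rab30L-/- than in the floxed controls, and lower means in DKO than in Cpt2L-/-. Cry1 was the reverse. The 3 calls held in each of the 16 fits that left out 1 library, with log2 values from -2.69 to -2.13 for Nr1d1, -2.78 to -2.23 for Dbp and 2.24 to 2.75 for Cry1. The interaction of Clock, 0.78 (adjusted p = 0.0624 from edgeR), was not called, and was called by DESeq2's Wald test (0.79, adjusted p = 0.0295) and, at 0.98, without Rab30L-/- replicate 1 (adjusted p = 0.0116).

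Other genes of the clock were taken from 4 lists: 8 core partners, 5 kinases and ubiquitin ligases, 11 clock-controlled genes and 5 links to fasting. In Cpt2L-/- against the floxed controls 4 of the 7 core partners tested were called, 2 higher and 2 lower. Nfil3, a repressor at D-boxes that opposes Dbp, fell from 25.7, 34.0, 34.2 and 56.2 CPM in the floxed controls to 2.95, 4.03, 4.996 and 7.45 CPM in Cpt2L-/- (log2 fold change -2.97, adjusted p = 3.1e-05 from edgeR). Bhlhe41 (Dec2), a repressor at E-boxes, rose from 0.976 to 1.52 CPM in the floxed controls to 7.81 to 10.7 CPM in Cpt2L-/- (log2 fold change 2.78, adjusted p = 6.4e-06 from edgeR). Bhlhe40 (Dec1) rose by 0.91 on the log2 scale, and Ciart, a further repressor of the Arntl and Clock pair, fell by 1.01. Bhlhe40 was at 34.5 to 48.4 CPM in the floxed controls and 63.7 to 99.2 CPM in Cpt2L-/-, and the latter overlapped the 66.98 to 92.0 CPM of Rab30 Ctrl.

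Of the 11 clock-controlled genes, 6 were called in Cpt2L-/-, 1 higher and 5 lower. Nr1i3, the nuclear receptor CAR, rose by 1.12 on the log2 scale, from 19.7 to 50.1 CPM in the floxed controls to 54.0 to 95.6 CPM in Cpt2L-/-, where Rab30 Ctrl had 53.6 to 126 CPM. Cyp7a1, the rate-limiting enzyme of bile acid synthesis, fell by 3.46, Noct (nocturnin) by 1.95, the deubiquitinase Usp2 by 1.66, the PAR bZIP factor Hlf by 0.82 and Nampt, an enzyme of NAD synthesis, by 0.58. In Cpt2L-/- 1 further gene was called in each of the other lists, the kinase Csnk1e (0.80) and the AMPK subunit Prkaa2 (0.63). The share called over all genes of this comparison was 23.8%.

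In DKO against the floxed controls, where 16.1% of all genes were called, 4 of 7 core partners were, with log2 fold changes of -1.58 for Nfil3, -0.96 for Ciart, 1.12 for Bhlhe40 and 1.79 for Bhlhe41. Of the clock-controlled genes, Noct (-2.64) and Usp2 (-0.78) fell and Wee1, a kinase of the cell cycle, rose (1.56). Gsk3b (0.45) and Prkaa2 (0.92) rose in the other lists. Between DKO and Cpt2L-/-, Nfil3 was higher by 1.39, and no gene of the other 3 lists was called by edgeR, while 12 of the 28 genes tested from the 4 lists had an unadjusted p under 0.05, as did 21.7% of all genes. Between Rab30L-/- and the floxed controls, and between Rab30KO and Rab30 Ctrl, 0 of these 28 genes were called by edgeR, and 5 and 0 of them had an unadjusted p under 0.05, as did 11.2% and 2.21% of all genes. The interaction was called for 4 of the 28, Nfil3 (2.05), Bhlhe41 (-2.54), Nr1i3 (-1.83) and Sirt1 (0.83), the deacetylase, against 4.06% of all genes. Between DKO and Rab30L-/-, where 30.7% of all genes were called, 12 of the 28 were, Bhlhe40, Gsk3b, Wee1, Sirt1, Prkaa1 and Prkaa2 higher and Cry2, Ciart, Timeless, Btrc, Nr1i3 and Cyp7a1 lower.

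**Figure D3:**
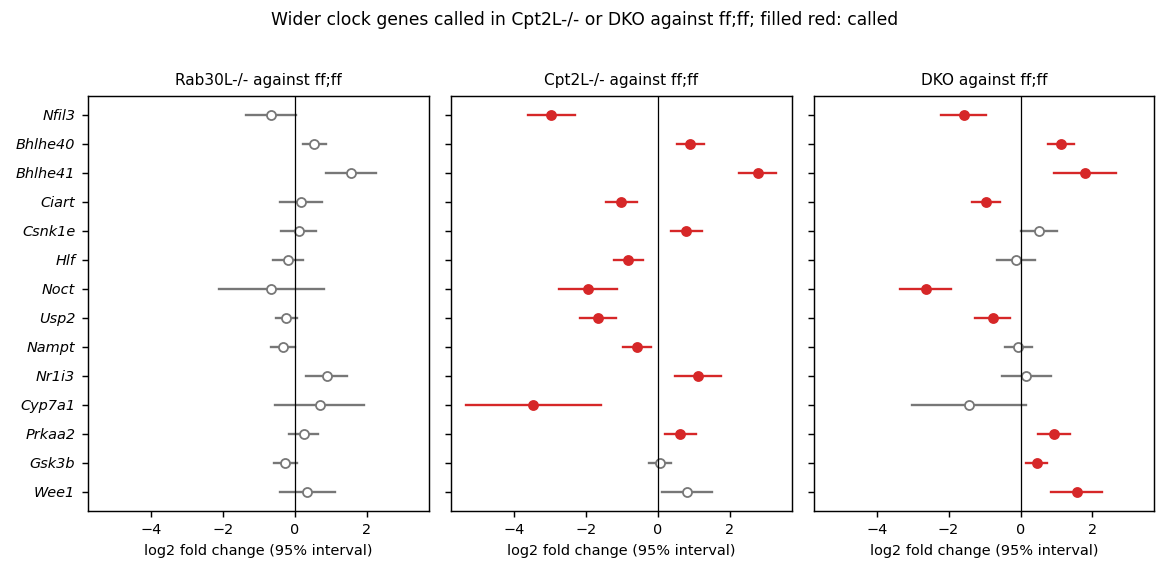
Log2 fold change (horizontal axis) with its 95% interval of the 14 genes of the wider clock lists that were called in Cpt2L-/- or in DKO against ff;ff, in 3 comparisons with ff;ff. Filled red points were called. None was called in Rab30L-/-, and Bhlhe41 at 2.78 and Cyp7a1 at -3.46 mark the ends of the range in Cpt2L-/-.

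The agreement of the livers of a group bears on how alike they were at collection, and was measured as the spread of log2 CPM around the group means. Pooled over the 6 groups, the standard deviation was 0.56 for Dbp, 0.54 for Arntl, 0.49 for Per3, 0.44 for Per1, 0.41 for Nr1d1, 0.41 for Per2, 0.40 for Cry1, 0.26 for Clock and 0.24 for Nr1d2, beside a median of 0.34 over the 14584 genes kept. Since low genes vary more, the genes were split into 5 equal bands by mean level, and each clock gene was ranked within its band. Of the genes in its band, 96.2% varied less than Dbp, 94.2% less than Per3, 92.0% less than Per1, 90.3% less than Nr1d1 and 89.9% less than Per2. The shares were 79.5% for Cry1 and 72.8% for Arntl, while Clock (57.9%) and Nr1d2 (51.6%) stood near the middle of their bands.

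Within each group, the median standard deviation of the 9 genes was set beside that of all genes, without regard to level. It was 0.29 in Rab30 Ctrl and 0.29 in Rab30KO, where the median over all genes was 0.33 and 0.32. In the floxed controls it was 0.34 against 0.33. In the 3 groups with albumin-Cre the medians were 0.41 against 0.27 in Rab30L-/-, 0.44 against 0.25 in Cpt2L-/- and 0.42 against 0.27 in DKO. The difference between groups in this spread was not tested.

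The library of Rab30L-/- replicate 1 stood farthest from its group on the clock genes. The root mean square of its deviations over the 9 genes was 0.69 on the log2 scale, and the values of the other 23 libraries ran from 0.16 to 0.52. In it Arntl was 1.15 above the group mean and Nr1d1 0.76 above, while Per3 was 1.11 and Per2 0.88 below. Over all genes its deviations had a root mean square of 0.44, within the range of 0.30 to 0.51 of the other libraries. Dbp was 1.07 below its group mean in DKO replicate 3 and 1.03 below in Rab30 Ctrl replicate 1. Without Rab30L-/- replicate 1, Clock was also called between DKO and Rab30L-/-, with a log2 fold change of 0.49 (adjusted p = 0.0338 from edgeR) beside 0.29 (adjusted p = 0.252) with it.

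**Figure D4:**
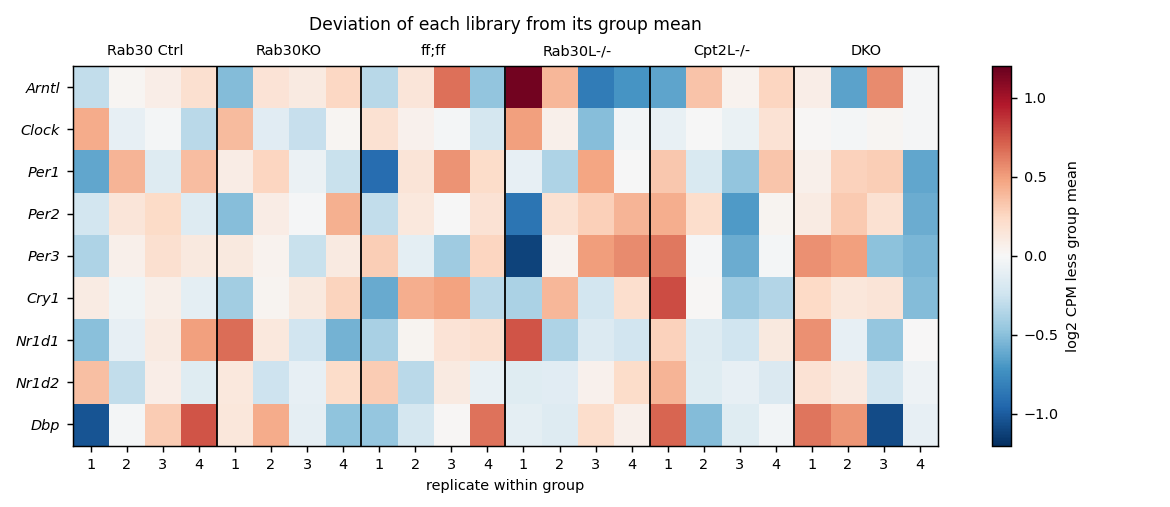
Deviation of each of 24 libraries (columns, 4 per genotype) from the mean log2 CPM of its genotype, for the 9 tested clock genes (rows), with red above and blue below the mean. Rab30L-/- replicate 1 has the darkest column, with Arntl at 1.15 and Per3 at -1.11.

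Around the group means, Arntl ran opposite to Per3 and Nr1d2. Of its 8 correlations with the other tested clock genes over 24 libraries, centred within groups and tested by 100000 permutations within groups, 2 passed adjustment over the 8. Pearson's r was -0.73 with Per3 (permutation p = 0.00241, adjusted p = 0.0193) and -0.51 with Nr1d2 (permutation p = 0.0106, adjusted p = 0.0423). Spearman's rho was -0.64 (permutation p = 0.011, adjusted p = 0.0487) and -0.52 (permutation p = 0.0122, adjusted p = 0.0487). The 2 libraries whose deviations of Arntl from the group mean lay farthest from the median deviation were Rab30L-/- replicates 1 and 3. Without them, r was -0.58 with Per3 and -0.53 with Nr1d2, and neither passed (adjusted permutation p = 0.0985 for each). The r with Per3 was thus weaker without those libraries, while that with Nr1d2 was no weaker, although its p no longer passed. The r of Arntl with Dbp was -0.33 (adjusted permutation p = 0.19) and with Nr1d1 0.14 (adjusted permutation p = 0.858).

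The genes whose deviations were most like those of a clock gene were also sought. For each of the 9, the 5 genes with the highest within-group r over the 24 libraries were taken from all genes kept, with no test. Of these 45 neighbours, 0 were among the 10 clock genes and 2 were in the wider lists, which hold 28 of the 14584 genes kept. Those 2 were Tef, another PAR bZIP factor, for Per3 (r = 0.86) and Nampt for Nr1d2 (r = 0.84). The nearest gene was Cebpa, a transcription factor of hepatocytes, for Dbp (r = 0.87), Cdc42bpg for Per1 (r = 0.92), Cpeb2 for Clock (r = 0.89), Zfp395 for Per3 (r = 0.86), Ireb2 for Nr1d2 (r = 0.86), Dsg1c for Per2 (r = 0.85), Ugt2b37 for Nr1d1 (r = 0.85), Armh3 for Cry1 (r = 0.81) and Tspan5 for Arntl (r = 0.77). Dsg1c was among the 5 nearest genes of Per3 as well (r = 0.83). Between the tested clock genes themselves, the highest within-group r was 0.71 for Per2 with Per3. It was followed by 0.67 for Per2 with Cry1 and 0.65 for Dbp with Nr1d1, again with no test.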

How the data were processed

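RNA-seq of 24 livers was measured in 6 genotype groups of 4, taken from the labels, and the methods call the 4 biological replicates. A sequencing company prepared and sequenced the libraries, and the submitters' processing notes name HISAT2, DESeq2, GRCm38 and mm10. The counter, the annotation version and the use of strand are not given in the sources used here. The authors deposited whole-number counts of reads per gene without normalization, and FPKM values, which scale counts by gene length and depth. A deposited table of normalized counts was not used. Nor were the authors' pairwise tables, which hold fold changes and p-values.

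Counts were filtered with filterByExpr, TMM-scaled and fitted per comparison on its 8 libraries (16 for the interaction, 24 for the 6 groups) by edgeR 4.0.16 (robust glmQLFit, glmQLFTest) in R 4.3.3, with Benjamini-Hochberg adjustment over all genes and thresholds of 0.05 and 1.2-fold. The 95% intervals use the t quantile at the degrees of freedom of each gene's test. The procedure was tested on simulated counts. Log2 CPM used a prior count of 2. Correlations, spread, promoter matches and levels were computed in Python 3.11.15 with pandas 2.3.3 and scipy 1.17.1. FPKM served only for levels between genes and for an alternative on log2(value + 0.1). Coordinates are those listed with the counts, the same as in GENCODE M21 for 98.0% of genes and for all 10 clock genes. Every pair of libraries in a group differed by more than counting noise, at least 12.7 times it in chi-square per degree of freedom. Replicate numbers follow accession order and pair no libraries.

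The clock genes and lists were chosen with earlier results of these data known. By a fixed rule the text names the 10 clock genes, Rab30, Cpt2, the genes of the wider lists called in a comparison and the 5 nearest genes of each clock gene (the nearest and those in a list being named). Of the wider lists, 2 genes are not reported here and are left out of the lists' counts. Alternatives were DESeq2 1.42.0 size factors and Wald or likelihood ratio test, no filter beyond 1 count, a minimum of 10 counts per library, calls without the fold threshold, a fit over all 24 libraries, and each library left out. Correlations of Arntl were planned with 9 genes and made with 8, since Npas2 was filtered.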

Additional observations from a re-analysis of the deposited data

Results flagged for a closer look

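Of the 54 pairs of gene and group, 2 held a library that stood apart from the other 3 by Dixon's criterion, and chance gives about 1 in 20. Cry1 in DKO replicate 4 was at 9.10 CPM, where the next library of the group was at 14.4 CPM. Nr1d2 in Cpt2L-/- replicate 1 was at 155 CPM, where the next was at 109.6 CPM.

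The change from the floxed controls to Rab30L-/- and the change from Cpt2L-/- to DKO differed for 3 clock genes in the interaction test by edgeR. On the log2 scale, the second change less the first was 2.41 for Cry1 (adjusted p = 0.00446), -2.47 for Nr1d1 (adjusted p = 0.00076) and -2.52 for Dbp (adjusted p = 0.00981). For Dbp these changes were -1.11 and 1.41, for Nr1d1 -1.22 and 1.25 and for Cry1 1.51 and -0.89. The labels give no collection day for any mouse and no litter relation for Rab30L-/- or Cpt2L-/-, so day or litter and genotype cannot be told apart here.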

How the results depend on the processing

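The calls of Arntl, Cry1, Nr1d1, Dbp and Per2 in Cpt2L-/- against the floxed controls, of Arntl in DKO, and of the 3 interactions held under every alternative run. The number of clock genes called between Rab30L-/- and the floxed controls went from 1 to 2 with DESeq2's Wald test and to 2 without a filter, and lay between 0 and 3 with 1 library left out. Between DKO and Rab30L-/- it went from 1 to 2 with the Wald test, to 2 in the fit over all 24 libraries and to 0 without a filter, and lay between 1 and 3 with 1 library left out. With 1 library left out, the number lay between 1 and 3 for DKO against the floxed controls and between 0 and 2 for DKO against Cpt2L-/-, 2 in each with all libraries. The first was 3 under DESeq2's size factors, the Wald test, no filter and the minimum of 10 counts, each with Nr1d1 gained, and the second was 3 with the Wald test, with Dbp gained. The cause was not tested.

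The 2 correlations of Arntl that passed became 1 under DESeq2's size factors, where that with Nr1d2 was lost (r = -0.47, adjusted permutation p = 0.0749). They became 0 without the 2 libraries whose deviations of Arntl lay farthest from the median deviation. Without those libraries r changed sign to -0.15 for Clock, 0.11 for Per1, 0.014 for Per2 and -0.20 for Nr1d1, none of which passed.

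The sign of uncalled changes near 0 turned when 1 library was left out. In Rab30KO against Rab30 Ctrl the log2 fold change ran from -0.049 to 0.13 for Per3, -0.34 to 0.093 for Nr1d1 and -0.021 to 0.22 for Nr1d2. In Rab30L-/- against the floxed controls it ran from -0.089 to 0.26 for Per2 and -0.068 to 0.13 for Nr1d2. In Cpt2L-/- it ran from -0.34 to 0.075 for Per1 and -0.058 to 0.21 for Nr1d2. In DKO against the floxed controls it ran from -0.20 to 0.16 for Per3, which was 0.0037 without a filter, and from -0.17 to 0.31 for Dbp. Between DKO and Cpt2L-/- Per1 ran from -0.28 to 0.039. Between DKO and Rab30L-/- it ran from -0.021 to 0.27 for Per1 and from -0.26 to 0.0092 for Cry1.

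Counts of all genes called moved by more than 1.5 times between Rab30L-/- and the floxed controls (64 against 298 with the Wald test, 240 without a filter and 25 with at least 10 counts in every library), between DKO and Cpt2L-/- (360 against 1032 with the Wald test, 705 without a filter and 114 over all 24 libraries), in the interaction (571 against 1080 with the Wald test) and between Rab30KO and Rab30 Ctrl (3 against 10 with the Wald test, 6 without a filter, 0 with at least 10 counts in every library and 9 over all 24 libraries). With 1 library left out, the count between Rab30L-/- and the floxed controls fell to 35 and 23 without Rab30L-/- replicates 2 and 4 and to 37 without floxed control replicate 2. Between DKO and Cpt2L-/- it fell to 188 and 98 without DKO replicates 1 and 2, and to 229, 117, 143 and 57 without Cpt2L-/- replicates 1 to 4 in turn. In the interaction it fell to 349 and 362 without Rab30L-/- replicates 2 and 4, 328 without DKO replicate 2, and 365, 339 and 300 without Cpt2L-/- replicates 2, 3 and 4. In Rab30KO it lay between 0 and 4, falling to 0 or 1 without Rab30KO replicate 1, 3 or 4 or Rab30 Ctrl replicate 1, 2 or 3. In the other 4 tests it stayed within 1.5 times of the count with all libraries. No paired analysis was possible because the labels give the groups no shared replicate numbers. At 0 to 8 counts per library, Npas2 was too thinly covered for the filter.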

Other observations

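Genes of the daytime arm (Dbp, Nr1d1, Nr1d2, Per1, Per2 and Per3) less those of the night arm (Arntl, Clock, Npas2 and Cry1) give a single value per liver, the difference of their mean log2 CPM. Its mean was 2.53 ± 0.38 (SD, n = 4) in the floxed controls, 3.48 ± 0.45 in DKO, 3.39 ± 0.10 in Rab30KO, 3.67 ± 0.28 in Rab30 Ctrl, 3.79 ± 0.45 in Cpt2L-/- and 3.87 ± 0.63 in Rab30L-/-. The highest floxed control was at 3.03, below every library of Rab30KO (3.29 to 3.51), Rab30 Ctrl (3.25 to 3.86), Rab30L-/- (3.25 to 4.62) and Cpt2L-/- (3.38 to 4.42), and above the lowest DKO library (2.93). Within the daytime arm, opposite changes offset each other in this value. In Cpt2L-/- against the floxed controls the log2 fold change was 1.90 for Nr1d1 and 1.17 for Dbp, and -0.80 for Per2. Npas2, at 0 to 8 counts per library, enters this value with the prior count that log2 CPM adds. No test was made of it.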
